A study of Mus musculus with 4 samples.

Results

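The GABA-A receptor subunit genes considered here are Gabrd, Gabra4, Gabra5, Gabra2, Gabra3, Gabrb1 and Gabrb2, and every probeset that the platform annotation gives to 1 of these 7 genes alone was taken. They had 21 of the 45101 probesets on the Affymetrix Mouse Genome 430 2.0 array. The samples were bilateral hippocampi of male DBA/2J mice, an inbred strain, labelled as 8 to 10 weeks of age. The fluoxetine group drank water with fluoxetine, an antidepressant that blocks serotonin reuptake, at 18 mg/kg per day for 21 days, and the control group drank untreated water (0 mg/kg) for the same time. Each group of 12 mice was combined into 2 pools of 6 mice, with 1 array per pool, so a value describes a pool of whole hippocampi and not a mouse or a cell type. Values are the submitters' GCRMA intensities on a linear scale.

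GABA-A receptors are chloride channels assembled from several subunits, and they carry most fast inhibition in the brain. Receptors with a gamma subunit gather at synapses, where they answer brief pulses of GABA. Receptors in which the delta subunit takes the place of gamma lie outside synapses, respond to the low level of GABA around the cell and carry a steady, tonic current. In the hippocampus the delta subunit pairs mainly with alpha 4 on granule cells of the dentate gyrus, while alpha 5 receptors carry much of the tonic current of pyramidal cells. Delta receptors are also known for their sensitivity to neurosteroids.

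Of the 21 probesets, 15 reached the submitters' minimum of 100 in at least 2 of the 4 arrays and were tested, and these cover all 7 genes. The other 6 were under 100 on every array, and 4 of them were under 20 on every array. The arrays were alike in range, with 16612 to 16866 probesets at 100 or more and medians of 22.5 to 23.2. Each of the 18 hybridisation spike-in probesets had higher values in the fluoxetine pair of arrays than in the control pair, by a median of 0.36 on the log2 scale, while the median over the 16938 tested probesets was -0.04. The part of the spike-in difference in the results below was not tested. Hippocampal neuron markers were present: 9 of 9 CA pyramidal and 11 of 13 mature granule cell genes were tested.

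Apart from Gabrd, each of these genes lies beside another GABA-A subunit gene, with Gabrg1, Gabra2, Gabra4 and Gabrb1 on mouse chromosome 5, although the coding gene Cox7b2 stands between Gabra2 and Gabra4. Gabra4 and Gabrb1 are immediate neighbours read from opposite strands in GRCm38.p6. The nearer of 2 annotated Gabrb1 start sites lies 387 bases from the Gabra4 start site, downstream of it in the direction in which Gabra4 is read. RefSeq promoter windows in that build were found for 6 of the 7 genes, and the exception was Gabrd. The 250 bases before the Gabra4 start and before the more distant Gabrb1 start are shown because all 5 tested probesets of these neighbours had higher means in fluoxetine pools, although none passed limma. The Gabra4 window is chr5:71658309-71658558 on the minus strand, the Gabrb1 window is chr5:71699682-71699931 on the plus strand, and capitals mark GGGCGG, the core of an SP1 site, on either strand.
Gabra4: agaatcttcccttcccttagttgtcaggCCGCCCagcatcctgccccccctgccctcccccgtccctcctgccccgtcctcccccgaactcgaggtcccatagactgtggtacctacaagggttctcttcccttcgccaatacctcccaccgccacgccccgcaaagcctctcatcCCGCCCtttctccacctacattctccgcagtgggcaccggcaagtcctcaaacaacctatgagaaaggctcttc
Gabrb1: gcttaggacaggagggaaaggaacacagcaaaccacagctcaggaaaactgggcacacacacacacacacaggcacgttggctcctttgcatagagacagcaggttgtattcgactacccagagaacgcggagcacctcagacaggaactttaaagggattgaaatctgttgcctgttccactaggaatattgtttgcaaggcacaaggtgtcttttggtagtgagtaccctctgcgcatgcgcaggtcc

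These letters come from the C57BL/6J reference and were not read from DBA/2J mice. GGGCGG stands at 2 places before Gabra4 and at none before either Gabrb1 start, and 32.7% of 32851 windows of this length hold it on either strand. The cAMP response element TGACGTCA, held by 1.55% of windows, was in none of the 10 windows of these genes. The EGR motif GCGNGGGCG, held by 4.7% of windows, was in 1 of the 10, before a Gabrb2 start, where it overlaps a GGGCGG match. TATAAA, held by 12.4% of windows, was in 3 of the 10. It begins 30 bases before a Gabrb2 start site, and the other matches are a single site shared by overlapping Gabra3 windows. All motifs were searched on both strands.

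Gabrd, which encodes the delta subunit, was lower after fluoxetine, and it was the only 1 of the 7 genes with a probeset that passed the test. Its tested probeset, 1449980_a_at, had intensities of 89.3 and 68.1 in fluoxetine pools 1 and 2, against 178 and 168 in control pools 1 and 2. The fluoxetine pools were each below 100 and the control pools each above it, and the groups did not overlap. The measured log2 fold change was -1.15 ± 0.14 (SE, n = 2 pools per group), with a Benjamini-Hochberg adjusted p of 0.0460 by limma over all tested probesets, of which 0.685% were called lower. As the fluoxetine pools have only a bound, Gabrd was at least 1.73-fold lower, taking its control mean of 173 against 100.

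The Gabrd call is close to its threshold. Because Gabrd passed the intensity filter only through its control pools, its testing depended on the group in which it was high. With probesets at 100 in at least 1 array its adjusted p was 0.0567 by limma, and with 100 required on all 4 arrays it was not tested. Leaving out any of the arrays (fluoxetine pool 1 or 2, or control pool 1 or 2) left 1 group with a single array and 0 of the 16938 probesets called by limma, Gabrd included. Its log2 fold change then lay between -1.35 and -0.96, with adjusted p between 0.13 and 0.198 and unadjusted p between 0.000245 and 0.00534, so these fits say nothing particular about Gabrd. The exact permutation test of 2 against 2 pools gave a two-sided p of 0.333, the smallest it can give. The other Gabrd probeset, 1457763_at, lay between 4.23 and 4.25 on all arrays and gives no second measurement.

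**Figure D1:**
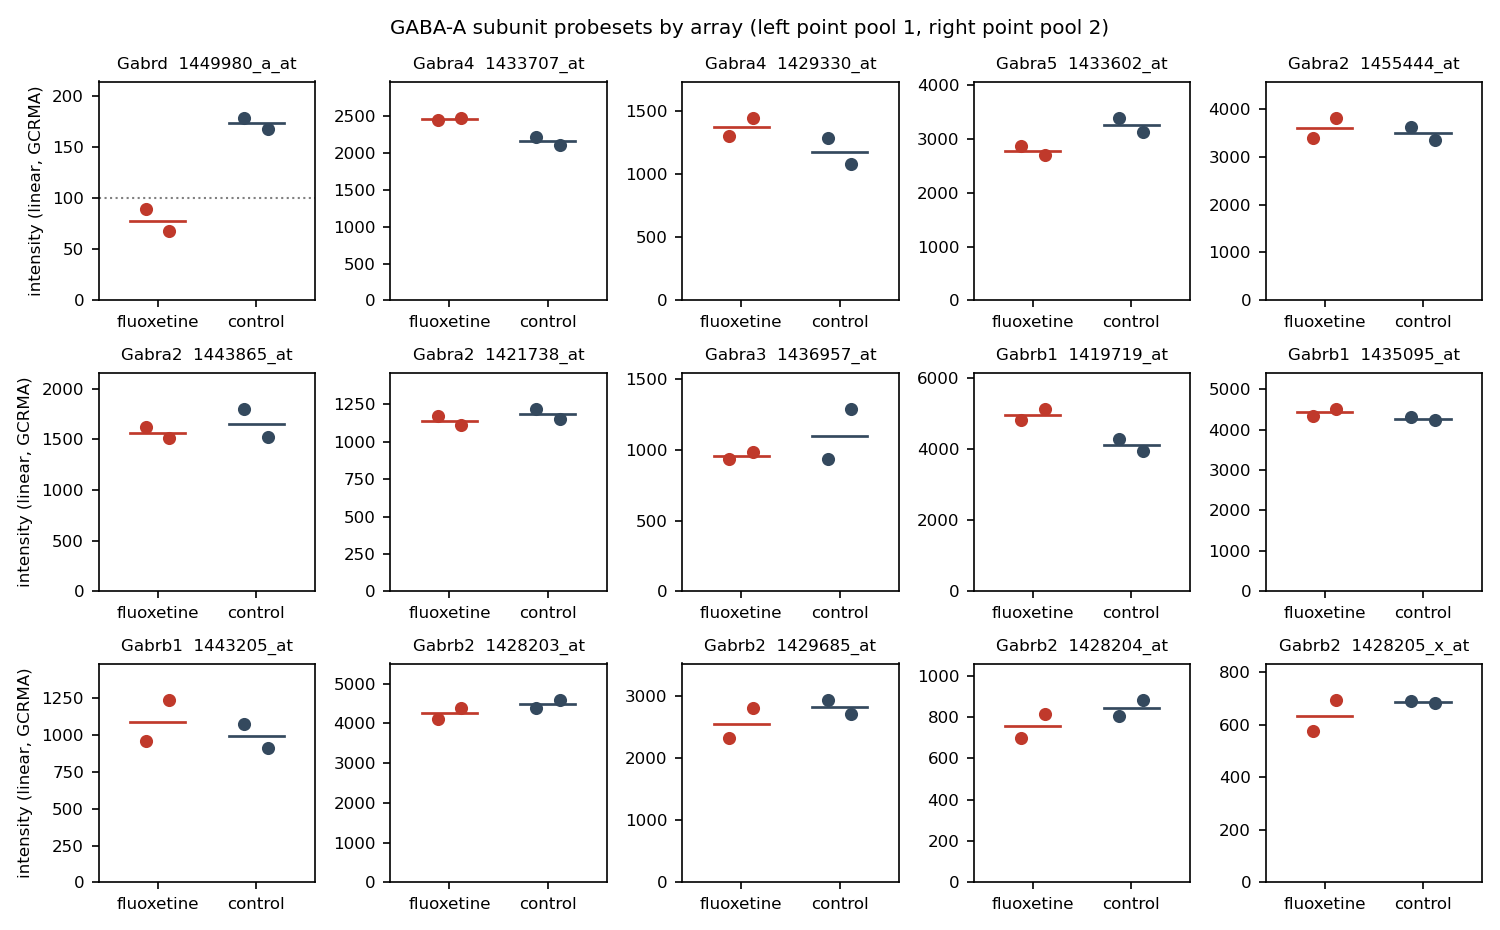
Intensity (linear GCRMA scale, from 0) of the 15 tested probesets in the 2 fluoxetine pools (red) and the 2 control pools (dark blue), 1 panel per probeset, with the bar at the geometric mean and the dotted line in the Gabrd panel at 100. Gabrd has 89.3 and 68.1 in fluoxetine pools against 178 and 168 in control pools, and none of the other 14 panels shows a difference that passed the test.

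Fewer granule cells and less Gabrd RNA per granule cell cannot be told apart in such pools, so granule cell genes are given beside Gabrd. Of the 11 tested mature granule cell markers, 1 fell and 1 rose, where 0.554% and 1.31% of all genes did. The list median was -0.0038 on the log2 scale, against -0.03 over all 9030 genes tested. Of these 11 genes, 6 had an unadjusted p under 0.05 by limma, beside 22.5% of all tested probesets. In sign, 5 were higher and 6 lower. Counting all tested probesets, 3 of the 11 genes had a call, Calb1 among them. The faller was Dsp, a desmosomal plaque protein, which had 246 and 179 in fluoxetine pools against 880 and 602 in control pools. The riser was Rasl10a, a Ras-like GTPase, with 540 and 577 in fluoxetine pools against 319 and 257 in control pools. Without passing at their brightest probesets, C1ql2 was at 1.11 ± 0.17 (adjusted p = 0.064 by limma) and Npnt at 0.72 ± 0.14 (0.0865). In the other direction, Calb1 was at -0.45 ± 0.08 (0.0771). The summed intensity of the 11 genes was 16947 and 18653 in fluoxetine pools and 20059 and 18979 in control pools. These groups did not overlap, and groups did not overlap at 56% of all tested probesets. C1ql3 was the largest term of the sum on each array and differed by -0.0038 on the log2 scale. Calb1 was the next largest, with 3488 and 3843 in fluoxetine pools against 5157 and 4876 in control pools. The part of these granule cell genes in the Gabrd result was not tested. Gabrd is also strongly expressed in the thalamus, which adjoins the hippocampus. Of 8 thalamus markers 3 were tested and 0 passed by limma (2 at an unadjusted p under 0.05), with a sum of 1309 and 1286 in fluoxetine pools and 1336 and 1514 in control pools. Slc17a6, a vesicular glutamate transporter of thalamic neurons, had 676 and 613 in fluoxetine pools against 797 and 1004 in control pools (log2 fold change -0.48 ± 0.13, adjusted p = 0.143). Slc17a6 is the largest term of that sum on each array, while the median log2 fold change of the 3 genes was 0.25, the value of Zic1, a transcription factor gene. Prkcd, a kinase of thalamic relay neurons, was also higher, with 174 and 135 in fluoxetine pools against 119 and 91.5 in control pools (log2 fold change 0.56 ± 0.18, adjusted p = 0.179).

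Gabra4 encodes alpha 4, the usual alpha partner of delta in granule cells, and its sign was opposite to that of Gabrd. Its brighter probeset, 1433707_at, had 2449 and 2477 in fluoxetine pools against 2221 and 2104 in control pools. The second, 1429330_at, had 1300 and 1443 in fluoxetine pools against 1284 and 1076 in control pools. Both probesets had non-overlapping groups with fluoxetine higher, although fluoxetine pool 1 and control pool 1 were nearly level at the second. The log2 fold changes were 0.19 ± 0.07 (adjusted p = 0.208) and 0.22 ± 0.11 (adjusted p = 0.329), and neither passed limma. The 95% intervals run from 0.64% to 29.0% higher for the brighter probeset and from -5.31% to 43.4% for the other.

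Gabra5, which encodes the alpha 5 subunit of pyramidal cell extrasynaptic receptors, has 1 probeset. It had 2878 and 2701 in fluoxetine pools against 3395 and 3131 in control pools, again without overlap. The log2 fold change was -0.23 ± 0.08 and did not pass (adjusted p = 0.198), with a 95% interval from -26.0% to -1.23%. The 9 CA pyramidal markers gave 0 calls by limma (2 at an unadjusted p under 0.05), and their summed intensity was 11000 and 10479 in fluoxetine pools against 12363 and 11038 in control pools. Their part in the Gabra5 values was not tested.

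The synaptic alpha subunits showed overlapping groups at each tested probeset. Gabra2 encodes alpha 2, found at synapses and on the axon initial segment of pyramidal cells, and its brightest probeset, 1455444_at, had 3383 and 3807 in fluoxetine pools against 3615 and 3358 in control pools. Its log2 fold change was 0.04 ± 0.09 (adjusted p = 0.811), with a 95% interval from -12.6% to 21.4%. The other tested Gabra2 probesets had changes of -0.08 and -0.06, so the sign was not shared within the gene. Gabra2 also has 2 probesets between 4.56 and 6.81 on all arrays, which carry no usable signal.

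Gabra3 encodes alpha 3, a subunit encoded on the X chromosome. Its tested probeset, 1436957_at, had 933 and 983 in fluoxetine pools against 935 and 1286 in control pools. Control pool 2 stands above the other 3 arrays, which lie close together. The log2 fold change of -0.20 ± 0.16 did not pass (adjusted p = 0.525), and without control pool 2 it was 0.0354. The dim probeset 1421263_at, not tested, also had its highest value in control pool 2, at 81.4, against 46.4 and 62.7 in fluoxetine pools and 53.1 in control pool 1.

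The beta subunits line the GABA binding site together with alpha and occur in synaptic and extrasynaptic receptors alike, so setting them with the synaptic subunits is a convention. All 3 tested Gabrb1 probesets had higher means in fluoxetine pools and all 4 tested Gabrb2 probesets had lower ones, and none passed limma. Gabrb1 probeset 1419719_at had 4829 and 5137 in fluoxetine pools against 4298 and 3964 in control pools, a log2 fold change of 0.27 ± 0.08 (adjusted p = 0.152, 95% interval 4.52% to 39.3% higher). This was the largest of the 14 changes besides that of Gabrd. Gabrb1 probeset 1435095_at, of similar brightness, differed by only 0.05 ± 0.07 (adjusted p = 0.683), with 4346 and 4509 in fluoxetine pools against 4303 and 4243 in control pools. The size of the Gabrb1 difference therefore depends on the probeset.

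For Gabrb2, the probeset 1428203_at had 4110 and 4394 in fluoxetine pools against 4395 and 4586 in control pools. These groups were separated only by the small gap between fluoxetine pool 2 and control pool 1, and the log2 fold change was -0.08 ± 0.07 (adjusted p = 0.565). The other 3 tested Gabrb2 probesets had overlapping groups and changes between -0.16 and -0.12. The interval of 1428203_at runs from -17.1% to 8.12%. A further dim probeset, 1450319_at, had 92.9 and 67.9 in fluoxetine pools and 73.5 and 72.0 in control pools and was not tested.

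**Figure D2:**
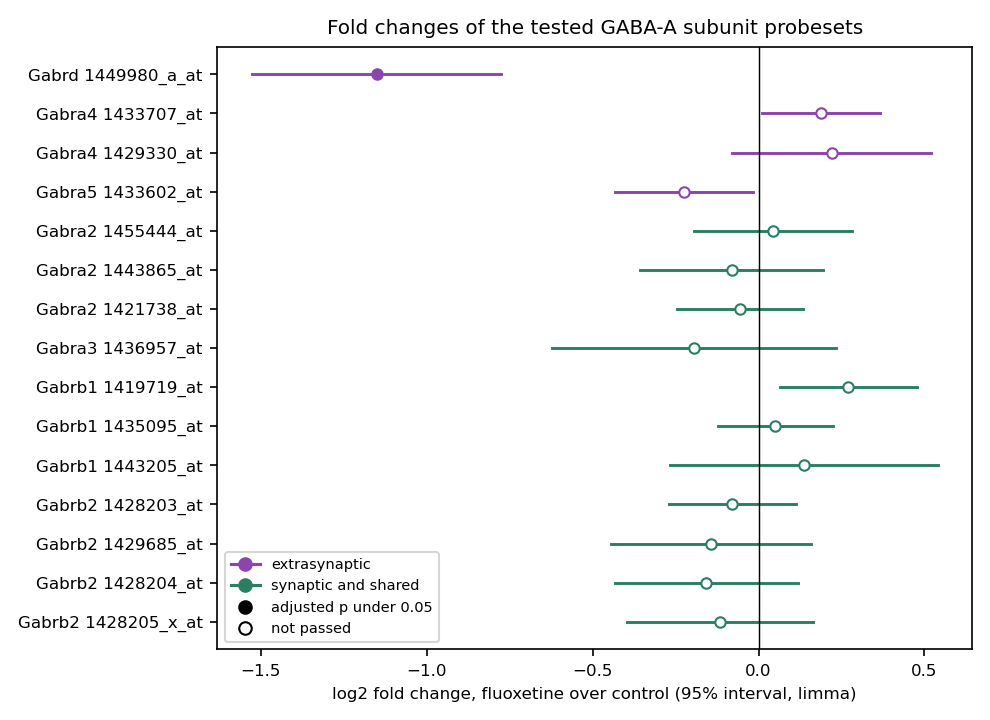
Log2 fold change, fluoxetine over control, of the 15 tested probesets with its 95% interval from limma, extrasynaptic subunits in purple and the others in green, filled where the adjusted p was under 0.05. Gabrd lies at -1.15, and the other 14 lie between -0.23 and 0.27.

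Across the 15 tested probesets, 1 was called by limma, against 1.72% of all tested probesets. Groups did not overlap at 7 of the 15, against 56% of all tested probesets, and 4 of the 15 had an unadjusted p under 0.05, against 22.5%. On the measured values, the submitters' own rule of a 2-fold difference took 1 of the 15, Gabrd, against 0.791% of all. Gabrd met that rule only through fluoxetine values under 100, as its bound of 1.73-fold is under 2-fold. The median log2 fold change was -0.08, and -0.07 over the 14 without Gabrd, beside -0.04 for all probesets. The share without overlap, 46.7%, lay below that of all probesets, the share with an unadjusted p under 0.05, 26.7%, lay near it, and the single call is the gene that entered through its control pools.

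The extrasynaptic genes Gabrd, Gabra4 and Gabra5 were set against Gabra2, Gabra3, Gabrb1 and Gabrb2 within each array, with each gene at its brightest tested probeset. The mean log2 intensity of the extrasynaptic genes minus that of the others was -1.72 and -1.98 in fluoxetine pools against -1.36 and -1.52 in control pools. The groups did not overlap, and the measured mean shifted by -0.41 (SD 0.19 in fluoxetine and 0.12 in control pools, n = 2 each). As Gabrd has only a bound in the fluoxetine pools, this size is not exact, and with values floored at 100 the shift was -0.286. Without Gabrd the same difference was -0.08 and -0.23 in fluoxetine pools against -0.04 and -0.21 in control pools, a shift of -0.03 with overlapping groups. Most of the class shift came from Gabrd, as Gabra4 at 0.19 and Gabra5 at -0.23 had opposite signs. No p is given for such a score, because 2 against 2 pools cannot give an exact permutation p under 0.333. Its genes were also chosen with earlier results known.

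**Figure D3:**
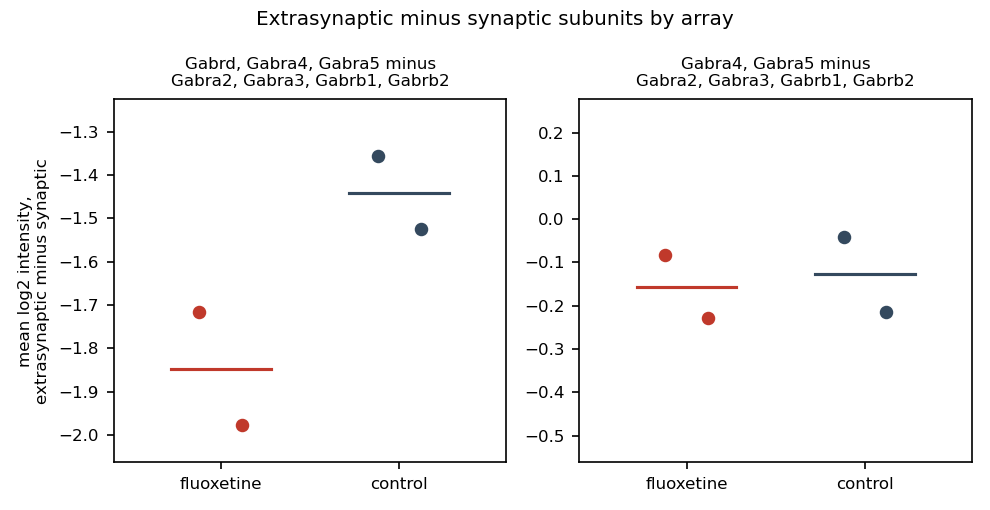
Mean log2 intensity of the extrasynaptic subunit genes minus that of Gabra2, Gabra3, Gabrb1 and Gabrb2 in the 2 fluoxetine pools (red) and the 2 control pools (dark blue), with bars at the group means, with Gabrd (left) and without it (right), on axes of equal span. The measured groups are apart by -0.41 on the left (-0.286 with values floored at 100) and by -0.03, with overlap, on the right.

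The remaining subunit genes gave little signal in this tissue. Of 8 others on the list that were analysed here, only Gabrg1, a gamma subunit neighbouring Gabra2, was tested. It had 263 and 295 in fluoxetine pools against 283 and 323 in control pools (log2 fold change -0.12 ± 0.10, adjusted p = 0.548). Gabrg3, another gamma subunit, was under the minimum at all its probesets, and the brightest had 72.6 and 65.7 in fluoxetine pools against 99.5 and 96.8 in control pools. Another 4 subunit genes were not analysed here.

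Among genes that anchor or transport GABA-A receptors, 1 of 23 tested passed, Trak2, and it rose. Across all 9030 genes at their brightest probesets 1.86% passed. Trak2 encodes a kinesin adaptor of mitochondria and vesicles that also binds a GABA-A beta subunit, and it had 1586 and 1448 in fluoxetine pools against 875 and 880 in control pools. Its log2 fold change was 0.79 ± 0.08 (adjusted p = 0.0354), and it stayed between 0.723 and 0.854 with any 1 of the 4 pools (fluoxetine 1, fluoxetine 2, control 1 or control 2) left out, where no probeset passed (Trak2 adjusted p 0.134 to 0.18). Gphn, gephyrin, the scaffold of inhibitory synapses, differed by 0.0027 on the log2 scale, with 1211 and 1258 in fluoxetine pools against 1229 and 1235 in control pools, and was chosen for mention after its values were seen. The next largest differences were Hap1, a huntingtin-associated transport protein (-0.51 ± 0.10, adjusted p = 0.0818), Mkln1, muskelin, which takes part in receptor transport (-0.40 ± 0.07, adjusted p = 0.0730), and Shisa7, an auxiliary subunit (-0.34 ± 0.12, adjusted p = 0.211). The list median was -0.04.

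**Figure D4:**
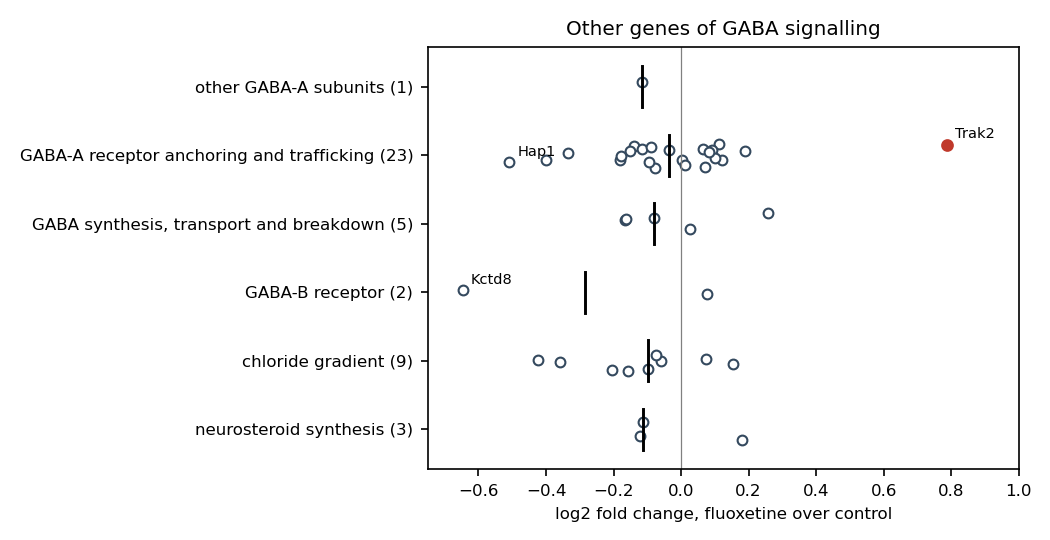
Log2 fold change, fluoxetine over control, of each tested gene at its brightest probeset in 6 lists of GABA signalling genes (number tested in brackets), red where the adjusted p was under 0.05 and open otherwise, with vertical bars at list medians. Trak2 at 0.79 is the only red point.

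Genes of GABA synthesis, transport and breakdown showed 0 calls by limma among 5 tested, and 0 of these 5 had an unadjusted p under 0.05. Gad2, a GABA-synthesising enzyme of nerve terminals, had 1176 and 1320 in fluoxetine pools against 972 and 1119 in control pools (log2 fold change 0.26 ± 0.11, adjusted p = 0.248). Gad1, the other synthesising enzyme, had 11697 and 11428 in fluoxetine pools against 11867 and 12597 in control pools (-0.08 ± 0.07). The GABA-degrading enzymes Abat and Aldh5a1 were at -0.17 ± 0.07 and -0.16 ± 0.07, with adjusted p of 0.250 and 0.275. Interneuron markers had 1 call among 11 tested genes, beside 1.86% of all genes. It was the neuropeptide gene Npy, which rose, with 5944 and 6508 in fluoxetine pools against 1236 and 1436 in control pools (log2 fold change 2.22 ± 0.10, adjusted p = 0.0172). The median of the 11 genes was 0.0024 on the log2 scale, with 7 higher and 4 lower. Among the lower genes, Kit was at -0.26 ± 0.08, Pvalb at -0.15 ± 0.07 and Sst at -0.12 ± 0.07, and none of these passed limma.

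The chloride gradient that sets the direction of GABA-A currents is kept by cotransporters and their kinases, and 0 of 9 such genes passed limma (1 at an unadjusted p under 0.05), with a median of -0.10. Slc12a5, the neuronal potassium-chloride exporter, had 9024 and 8855 in fluoxetine pools against 9742 and 10194 in control pools (log2 fold change -0.16 ± 0.07, adjusted p = 0.261). Oxsr1, a kinase that acts on these cotransporters, had 247 and 246 in fluoxetine pools against 357 and 306 in control pools (-0.42 ± 0.10, adjusted p = 0.107). The chloride channel gene Clcn2 was at -0.36 ± 0.14 and the kinase gene Wnk3 at -0.20 ± 0.11. Of neurosteroid synthesis genes 3 of 9 were tested, the rest being too dim, and 0 passed by limma, adjusted or at an unadjusted p under 0.05. Dbi, a benzodiazepine-site ligand and acyl-CoA carrier, was at 0.18 ± 0.08 (adjusted p = 0.260), Fdx1, an electron carrier of steroid synthesis, at -0.12 ± 0.07, and the reductase gene Srd5a3 at -0.11 ± 0.08.

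GABA-B receptors are G protein-coupled, and 2 of the genes on that list were tested, with 0 passing limma and 1, Kctd8, at an unadjusted p under 0.05. Gabbr1, the ligand-binding subunit, had 3338 and 3172 in fluoxetine pools against 3081 and 3088 in control pools (log2 fold change 0.08 ± 0.07, adjusted p = 0.544). Kctd8, an auxiliary subunit, had 73.5 and 58.5 in fluoxetine pools against 102 and 104 in control pools (adjusted p = 0.0831), and like Gabrd it was tested only through its control pools. Its fluoxetine values are under the minimum.

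The 5 genes whose values followed those of Gabrd most closely over the 4 arrays, by Euclidean distance of centred log2 values, were Lypd1, Trpm3, Psrc1, Ltk and Sult1a1, at distances of 0.125 to 0.236. Lypd1, a Ly6 family protein that modulates nicotinic receptors, had 196 and 166 in fluoxetine pools against 398 and 367 in control pools. Trpm3, a cation channel, had 170 and 129 in fluoxetine pools against 297 and 275 in control pools, and did not pass (adjusted p = 0.0642). Psrc1, Ltk and Sult1a1 were under 100 in each fluoxetine pool and, like Gabrd, were tested only through their control pools. Sult1a1 did not pass either (adjusted p = 0.0704 by limma). Likeness over 4 arrays is a description only.

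Some astrocyte, microglia and vascular markers were higher in fluoxetine pools, and the summed lists of these cell types did not overlap between groups. Groups did not overlap at 56% of all tested probesets. Of the 10 tested astrocyte genes 3 rose, where 1.31% of all genes did, and the sum of the list was 69103 and 69347 in fluoxetine pools against 53906 and 54854 in control pools. The others did not pass at their brightest probesets, and Fgfr3, an astrocyte growth factor receptor, was at -0.44 ± 0.10 (adjusted p = 0.110). Slc1a2, the largest term of the astrocyte sum on each array, was at 0.11 ± 0.06 (adjusted p = 0.370). Of 8 tested microglia genes 4 rose, with sums of 6536 and 6502 in fluoxetine pools against 4189 and 4191 in control pools. Of 7 tested endothelial and mural genes 2 rose, with sums of 4931 and 4850 in fluoxetine pools against 3559 and 3532 in control pools. No gene of these lists fell by limma at its brightest probeset. Counting all tested probesets, 4 of the 10 astrocyte genes had a call, with Slc1a2 called at 1 of its 3 tested probesets. Oligodendrocyte genes gave 0 calls by limma among 9 tested (0 at an unadjusted p under 0.05). Their sums were 58960 and 58450 in fluoxetine pools against 61793 and 61273 in control pools, also without overlap and with fluoxetine lower. Immature granule cell genes had 1 rise among 9 tested, Sox11, with sums of 26451 and 27014 in fluoxetine pools against 24286 and 27654 in control pools. These sums overlapped between groups, and the list median was 0.02 on the log2 scale. In sign, 5 of the 9 genes were higher and 4 lower, with Marcksl1 lowest at -0.49 ± 0.10 (adjusted p = 0.0927 by limma). Choroid plexus genes, 2 tested of 7 with 0 calls by limma (0 at an unadjusted p under 0.05), followed the pool number more than the treatment, with sums of 51221 and 4460 in fluoxetine pools 1 and 2 against 37976 and 2050 in control pools 1 and 2. The part of these cell types in the subunit values was not tested.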

How the data were processed

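Each deposited value is a probeset's linear intensity on 1 array. The authors had normalized these intensities by GCRMA, run in ArrayAssist, per the labels' design text, which gives no version. GCRMA adjusts background by probe sequence and draws dim probesets towards a floor. Values were taken to log2 with no pseudocount. Testing covered probesets at 100 or more on at least 2 of the 4 arrays, without the 64 Affymetrix controls (16938 probesets, 9030 genes with a single symbol). The model was a two-sided limma fit (version 3.58.1, R 4.3.3) with default eBayes moderation. A call is a Benjamini-Hochberg adjusted p under 0.05, adjusted over every tested probeset. Group means are geometric, printed errors are standard errors from limma, and lists use each gene's brightest tested probeset.

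Named genes are every probeset of the 7 subunit genes, up to 4 genes per list with the largest absolute change plus every gene that passed, and the 5 genes nearest to Gabrd. Not all of these are described. Members and lists were chosen with earlier results of these data known. The pools are described as separate groups of mice. On simulated data for this comparison of 16938 probesets, the fit recovered 7.6% of log2 changes of 0.5, 79.6% of log2 1 and 96.8% of log2 2. The number of arrays limits the precision. Alternatives were other filters, scalings, a floor, a pseudocount, other moderation, a replicate block and leaving out each array. Promoter windows are from RefSeq tables of GRCm38.p6.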

Additional observations from a re-analysis of the deposited data

Results flagged for a closer look

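A signal appeared in control probesets that no comparison uses: the hybridisation spike-ins had higher values on the fluoxetine arrays by a median of 0.361 on the log2 scale (0.174 to 0.546 over 18 probesets). When the arrays were hybridised or scanned is not given in the sources used here, and the part of this difference in the subunit values was not tested.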

How the results depend on the processing

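Gabrd kept its direction under all 14 alternatives that tested it, with log2 fold changes from -1.35 to -0.79. As its groups did not overlap, leaving out a pool could not change that direction. Other filters, moderation, array weights and the replicate block left the fold change at -1.15. The kept direction is therefore no separate support for the difference. Gabrd passed limma with a pseudocount of 32, with median centring, with quantile normalization, floored at 100, without _x_at and _s_at probesets, with trend and robust moderation and with array weights (adjusted p 0.0304 to 0.0453). Each of these fits kept the filter that Gabrd met only through its control pools. The floor also sets its 2 fluoxetine values to the same 100, which removes their spread. The count of called subunit probesets was 1, and 0 with 100 in at least 1 array (Gabrd adjusted p 0.0567), with 100 on all 4 arrays, which removes Gabrd from the test, with no filter (0.22), with the replicate block (0.0966) and without any 1 pool (0 to 0). Over all probesets the 291 calls became 163 with 100 in at least 1 array (71.8% of them higher, against 60.1%), 0 with no filter (5396 at an unadjusted p under 0.05), 9 with the replicate block, 532 with trend and robust moderation, and 0 without any 1 pool (0 to 0, with 2657 to 3515 at an unadjusted p under 0.05). The causes were not tested. The shift of extrasynaptic minus synaptic subunits was -0.0287 with 100 on all 4 arrays, because Gabrd is then absent, -0.538 to -0.275 without any 1 pool, and -0.32 against the alpha subunits alone. In the sample titles, same-numbered pools share only a number. Their deviations correlated at 0.139 over tested probesets, while the choroid plexus sums followed pool number in each group. What else same-numbered pools share was not tested. Of 223 values of subunit probesets under alternatives, 6 changed sign, all with 1 pool left out. The log2 ranges without any 1 pool were -0.251 to 0.0159 for Gabrb2 1428205_x_at, -0.0423 to 0.128 for Gabra2 1455444_at (and -0.0104 without control pool 2), -0.202 to 0.0392 for Gabra2 1443865_at, -0.047 to 0.319 for Gabrb1 1443205_at and -0.426 to 0.0354 for Gabra3 1436957_at. Trak2 kept a log2 fold change of 0.788 with no filter (adjusted p 0.157) and with the replicate block (0.101), and of 0.723 to 0.854 without any 1 pool, without passing in these fits.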
